A study of Mus musculus with 6 samples.

Results

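The 45 genes described here encode the machinery that copies DNA once per cell cycle and the regulators that move cells from G1 into S phase. They were taken by symbol from the table of 16874 genes, and all 45 had a row. They cover 10 genes of origin licensing, 6 of origin firing and the CMG helicase, 8 polymerase, primase and single-strand binding genes, 8 genes of the sliding clamp, clamp loader and flap processing, 4 of nucleotide supply, 5 of chromatin and methylation copying and histone supply, and 4 G1/S regulators. RNA was measured in cultured fibroblasts, the matrix-making cells of connective tissue, from the colon of C57BL/6 mice labelled 12 weeks old. Of the 6 libraries, 3 are labelled WT and 3 are labelled Prkcz-/-, for loss of Prkcz, which encodes the atypical protein kinase C zeta. No treatment was given, and collection was 24 h after plating, at roughly 80% confluency. The series' design text also names a control guide, sgScr, in both genotypes and a Sox2 guide, with 4 replicates. No label of a library names a guide, so whether these cells carry one is not known. The labels do not say which cells carry the deletion, or whether the 3 libraries of a genotype stem from different mice or dishes, so the p-values measure the spread between these libraries, which may be technical.

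In G1 the origin recognition complex, CDC6 and CDT1 load the ring of MCM2 to MCM7 onto origins. The kinases DBF4-CDC7 and cyclin E-CDK2 then convert loaded rings into active helicases that hold CDC45 and GINS, and polymerases, the PCNA clamp and its loader follow. E2F transcription factors, freed from RB proteins late in G1, raise transcription of most of these genes, so their RNA is often used to show how much of a culture is cycling. RNA of a whole culture cannot tell fewer cells in S phase apart from less RNA per cell.

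The labels were not borne out by the targeted gene. Prkcz measured 0.0433, 0.144 and 0.202 FPKM (fragments per kilobase and per unit of depth) in WT libraries 1 to 3 and 1.35, 1.32 and 1.17 FPKM under the Prkcz-/- label (log2 difference 1.51, SE 0.148, limma adjusted p = 4.65e-05). It was higher where it should be lost, a whole-gene value does not show whether a deleted stretch was read, and every direction below is therefore for libraries labelled Prkcz-/- against libraries labelled WT. Each library held an estimated 14100000 to 17000000 reads, judged from the steps of low values and annotated exon lengths, and the groups overlapped in it. Pearson's r of log2 values was 0.982 to 0.984 within groups and 0.907 to 0.911 across them. Of 12 fibroblast markers, 8 were higher and 4 lower, and their summed FPKM was 8818 to 9107 in WT and 12500 to 12800 under the Prkcz-/- label. That sum is carried by abundant genes such as Col1a1 and Vim, and hides others: Dcn went from 49.1 to 5.34 FPKM, and Lum from 3.39 FPKM to values under 0.5 FPKM in each library labelled Prkcz-/- (0.0665, 0.0587 and 0.151). The other markers stayed low for epithelium (sum 1.73 to 2.63 against 2.19 to 2.61 FPKM, with 9 of 11, among them Epcam and Cdh1, under 0.5 FPKM in every library), immune cells (2.18 to 3.29 against 2.46 to 4.35 FPKM, Ptprc under 0.5 throughout), endothelium (0.789 to 1.11 against 0.617 to 0.789 FPKM, Pecam1 under 0.5) and glia (1.51 to 1.90 against 1.724 to 2.32 FPKM, Sox10 under 0.5). The epithelial sum hides opposite moves. Cldn7, too low on average to be tested, measured 0, 0.0793 and 0 FPKM in WT and 1.03, 1.05 and 0.720 FPKM under the Prkcz-/- label. Krt19 went from 1.45 to 0.801 FPKM (limma adjusted p = 0.0318), with overlap between the groups. Mesothelial markers summed to 6.46 to 7.69 FPKM in WT and 0.772 to 1.37 FPKM under the Prkcz-/- label, and interstitial cell of Cajal markers to 0.684 to 0.987 and 1.48 to 1.65 FPKM. Smooth muscle and pericyte markers summed to 1635 to 1779 FPKM in WT and 2031 to 2113 FPKM under the Prkcz-/- label, with 2 of 8 higher and 2 lower. Within that list Acta2 rose from 1179 to 1917 FPKM, while Actg2 fell from 461 to 52.9 FPKM (log2 difference -3.11, limma adjusted p = 3.66e-09). The part of these marker differences in the results below was not tested.

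Most of the 45 genes had less RNA in the libraries labelled Prkcz-/-. All 45 passed the filter on low values, which asked for 0.5 FPKM or more on average. At an adjusted p under 0.05 in a limma fit over 12130 genes, 37 were lower, 4 were higher and 4 were not called. Across all genes tested, 37.2% were lower and 31.5% were higher, so differences in either direction were common in these libraries (68.7% called). The counts for licensing, firing and each further set of genes below are to be read beside these shares. In 37 of the 45 genes all 3 libraries labelled Prkcz-/- lay below all 3 WT libraries, as 39.4% of all tested genes did. In 5 they lay above, as 33.3% of all tested genes did, and in 3 the groups overlapped. The median log2 difference of the 45 genes was -0.37, against -0.04 over all genes tested, and the values ran from -1.06 for Cdc7 to 0.46 for Mcm6. The differences were of moderate size: 14 genes had a log2 difference below -0.5, and 1 was at or below -1. Summed over the 45 genes, expression was 2711 ± 25.1 FPKM in WT and 2209 ± 11.5 FPKM under the Prkcz-/- label (SD, n = 3). The sum over all 16874 genes was 486793, 459388 and 467194 FPKM in WT libraries 1 to 3. Under the Prkcz-/- label that total was also lower, at 442273, 441972 and 442730 FPKM, so the 45-gene sums do not stand on equal totals. Ranked by mean FPKM, the lowest 22 genes had a median log2 difference of -0.40 and the highest 22 one of -0.33, with 18 lower in each set.

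**Figure D1:**
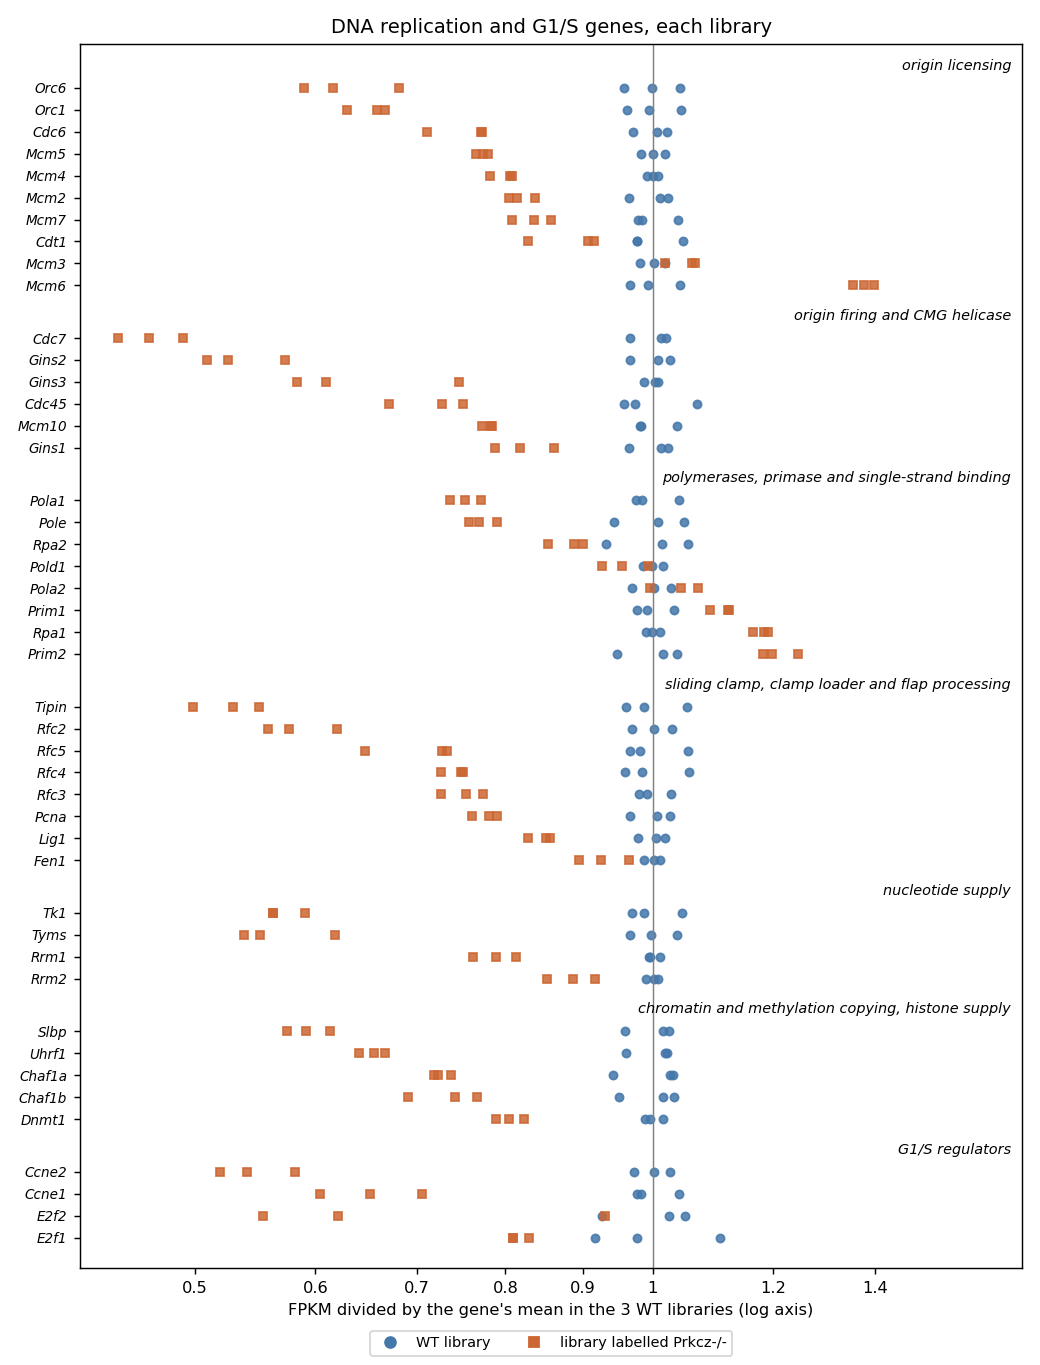
FPKM of each of the 45 genes in each library, divided by the gene's mean in the 3 WT libraries, on a log axis, with circles for WT and squares for libraries labelled Prkcz-/-. In 37 genes the squares all lie left of the circles, and Mcm6, Mcm3, Prim1, Prim2 and Rpa1 have all squares to the right.

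Promoter letters are shown for genes that moved in different directions, because E2F binding near the start is the feature these genes are best known to share. RefSeq promoter windows on GRCm38.p6, from 250 bases before to 50 after a start, were in the reference table for 37 of the 45 genes. They were searched on both strands for 4 E2F words, TTTCCCGC, TTTGGCGC, TTTCGCGC and TTTGCCGC. Of the 37 genes, 15 held at least 1 (40.5%), against 2.6% of 27025 genes in the promoter table and 4.81% of 9186 tested genes with a promoter. Below, E2F words are in capitals, each stretch is 60 bases on the gene's own strand, and the first base of the word lies at -110 and -47 (both for Mcm6), -153 (Mcm5), -165 (Mcm7), -27 (Orc1), -138 (Cdc6), -138 (Pola1) and -41 (Gins3) from the start, whose first base counts as 0. Words read on opposite strands can share bases, as in the longer capital runs of Mcm6 and Mcm5.
Mcm6 (chr1:128359782-128359841, minus strand): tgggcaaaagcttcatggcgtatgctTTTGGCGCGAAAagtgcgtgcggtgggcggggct
Mcm6 (chr1:128359719-128359778, minus strand): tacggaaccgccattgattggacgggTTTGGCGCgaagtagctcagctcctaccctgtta
Mcm5 (chr8:75109330-75109389, plus strand): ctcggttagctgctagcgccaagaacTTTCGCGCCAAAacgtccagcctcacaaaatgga
Mcm7 (chr5:138172015-138172074, minus strand): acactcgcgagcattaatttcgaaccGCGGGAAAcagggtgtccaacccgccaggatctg
Orc1 (chr4:108579401-108579460, plus strand): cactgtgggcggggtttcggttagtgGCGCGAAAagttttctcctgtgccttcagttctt
Cdc6 (chr11:98907987-98908046, plus strand): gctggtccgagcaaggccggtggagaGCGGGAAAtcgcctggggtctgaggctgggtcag
Pola1 (chrX:93632260-93632319, minus strand): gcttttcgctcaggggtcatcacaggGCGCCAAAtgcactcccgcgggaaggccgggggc
Gins3 (chr8:95633492-95633551, plus strand): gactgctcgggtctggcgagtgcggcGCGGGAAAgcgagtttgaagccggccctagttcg

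Genes with and without an E2F word had close medians. The 15 genes with a word had a median log2 difference of -0.37, with 11 lower and 1 higher, and the 22 without had -0.39, with 19 lower and 2 higher. The 8 genes with no promoter in the table had -0.57, with 7 lower and 1 higher. Mcm6, the gene with the highest difference, held the words at 2 places, and Cdc7, the one with the lowest, held none in its window. The CCAAT box, CCAAT on either strand, was in 62.2% of the 37 genes and 43.6% of tested genes with a promoter. The GC box, GGGCGG on either strand, was in 78.4% and 71.3%, and it can share bases with an E2F word read as GCGGGAAA. The CHR element of G2 genes, searched as TTTGAA or TTCGAA on either strand, was in 24.3% and 15.7%. These matches describe letters and do not show binding, and a gene without a match may still be an E2F target. E2f1, described below as such a target, held none of the words in its window. The comparison of medians therefore does not separate E2F targets from other genes.

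Of the 10 licensing genes, 8 were lower, Mcm6 was higher and Mcm3 was not called, with a median log2 difference of -0.30. Orc6, the smallest subunit of the origin recognition complex, measured 66.0, 60.6 and 63.3 FPKM in WT libraries 1 to 3 and 39.0, 37.3 and 43.1 FPKM under the Prkcz-/- label. The groups lay far apart relative to their spread (log2 difference -0.66, SE 0.0583, limma adjusted p = 2.52e-05). Orc1, the cell cycle regulated ATPase of that complex, measured 8.95, 8.24 and 8.53 FPKM in WT and 5.72, 5.39 and 5.64 FPKM under the Prkcz-/- label, without overlap (log2 difference -0.58, SE 0.0581, limma adjusted p = 5.52e-05). Its annotated exons share 10.8% of their length with a gene on the opposite strand. Cdc6, the loader that brings MCM rings to origins, went from 14.4 ± 0.382 to 10.8 ± 0.511 FPKM (SD, n = 3; log2 difference -0.40, SE 0.0517, limma adjusted p = 2.37e-04). Cdt1, its partner, which is destroyed in S phase, fell by little, from 42.1 ± 1.73 to 37.2 ± 2.04 FPKM (SD, n = 3; log2 difference -0.18, SE 0.0510, limma adjusted p = 0.0147), and its call ended under quantile normalization (adjusted p = 0.0686) and after rescaling without short RNA genes (adjusted p = 0.147).

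The 6 subunits of the MCM2 to MCM7 ring moved apart. Mcm6 (chromosome 1, 128331590 to 128359664, minus strand, GRCm38) measured 149, 157 and 145 FPKM in WT libraries 1 to 3 and 207, 210.1 and 204 FPKM under the Prkcz-/- label. All 3 of the latter were above all WT libraries, and the difference was many times the spread (log2 difference 0.46, SE 0.0367, limma adjusted p = 1.49e-05). Mcm5 measured 82.9, 84.4 and 81.5 FPKM in WT and 64.1, 64.6 and 63.4 FPKM under the Prkcz-/- label (log2 difference -0.37, SE 0.0305, limma adjusted p = 1.77e-05). Its groups were separated the other way, as were those of Mcm4, Mcm2 and Mcm7. Mcm4 went from 103 ± 0.892 to 82.2 ± 1.49 FPKM (SD, n = 3; log2 difference -0.32, limma adjusted p = 3.47e-05). Mcm2 went from 92.4 ± 2.82 to 75.6 ± 1.54 FPKM (SD, n = 3; log2 difference -0.29, limma adjusted p = 1.75e-04). Mcm7, which hosts the microRNA genes Mir25 and Mir93 and whose exons overlap those of Cops6 and Ap4m1 on the other strand, went from 109.8 ± 3.73 to 91.5 ± 2.72 FPKM (SD, n = 3; log2 difference -0.26, limma adjusted p = 4.62e-04). Mcm3 measured 99.8, 101.4 and 97.7 FPKM in WT and 101.5, 106.2 and 105.7 FPKM under the Prkcz-/- label. The lowest of the latter lay just above the highest WT value, and the difference did not pass the threshold (log2 difference 0.068, SE 0.0331, limma adjusted p = 0.1003). With median-ratio scaling, quantile normalization or rescaling without short RNA genes, Mcm3 was called higher (adjusted p = 0.0248, 0.00158 and 0.00388).

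Because the ring holds 1 copy of each subunit, the subunits were also compared as shares of their summed FPKM, which is scaled by gene length. The sum of the 6 was 639, 646 and 629 FPKM in WT libraries and 625, 630.1 and 619 FPKM under the Prkcz-/- label, so the groups overlapped. Mcm6 made up 23.4, 24.3 and 23.1% of it in WT and 33.1, 33.3 and 32.9% in the libraries labelled Prkcz-/-. It had the highest FPKM of the 6 in every library. Mcm3 had 15.6% ± 0.0829 and 16.7% ± 0.435 (SD, n = 3). The shares of the other 4 were lower in every library labelled Prkcz-/- than in any WT library: Mcm5, for example, had 13.0% ± 0.0617 in WT and 10.2% ± 0.0103 in the libraries labelled Prkcz-/- (SD, n = 3). RNA shares are not protein shares.

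**Figure D2:**
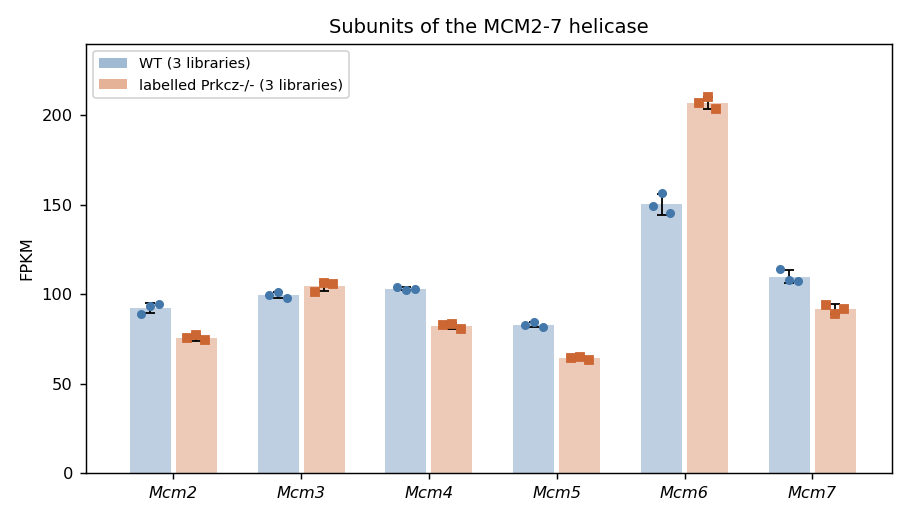
FPKM of the 6 subunits of the MCM2 to MCM7 helicase, with bars for the mean of 3 libraries, error bars for the SD and points for single libraries. Mcm6 is higher in the libraries labelled Prkcz-/- (207 against 150.4 FPKM), Mcm3 is close in both groups, and the other 4 are lower.

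All 6 genes of origin firing and the CMG helicase were lower, with a median log2 difference of -0.54. Cdc7 (chromosome 5, 106964322 to 106984432, plus strand), the kinase that phosphorylates loaded MCM rings, had the lowest log2 difference of the 45 genes. It measured 21.5, 21.4 and 20.4 FPKM in WT libraries 1 to 3 and 10.4, 9.39 and 9.84 FPKM under the Prkcz-/- label (log2 difference -1.06, SE 0.0512, limma adjusted p = 9.39e-07). The groups did not overlap, and the mean was 53.2% below that of WT. Gins2, a subunit of the GINS tetramer, measured 82.3, 85.9 and 87.5 FPKM in WT and 48.8, 43.4 and 44.8 FPKM under the Prkcz-/- label (log2 difference -0.89, SE 0.0498, limma adjusted p = 2.03e-06). Its groups did not overlap, but 67.3% of its annotated exon length is shared with Gse1 on the opposite strand, and the strand setting of the counting is not given in the sources used here. Gins3 measured 10.7, 10.9 and 10.8 FPKM in WT and 8.06, 6.59 and 6.31 FPKM under the Prkcz-/- label. Library 1 of the latter stood above libraries 2 and 3 but below every WT library (log2 difference -0.60, SE 0.0872, limma adjusted p = 4.33e-04). Gins1 fell less, from 26.9 ± 0.848 to 22.1 ± 1.00 FPKM (SD, n = 3; log2 difference -0.28, SE 0.0468, limma adjusted p = 0.00102). Together Gins1, Gins2 and Gins3 summed to 123.0 ± 3.61 FPKM in WT and 74.8 ± 2.85 FPKM under the Prkcz-/- label (SD, n = 3). The remaining subunit gene, Gins4, is no member, and overlapped between the groups at 51.7, 43.1 and 47.1 FPKM in WT against 41.7, 44.0 and 45.7 FPKM (log2 difference -0.11, limma adjusted p = 0.190, not called). Cdc45, which completes the helicase, went from 36.7 to 26.3 FPKM (log2 difference -0.47, limma adjusted p = 1.74e-04). Mcm10, which activates it at the origin, went from 15.3 to 12.0 FPKM (log2 difference -0.35, limma adjusted p = 2.18e-04).

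The 8 polymerase, primase and single-strand binding genes had no common direction: 3 were higher, 3 were lower and 2 were not called, with a median log2 difference of -0.0052. These counts were near the shares of all tested genes, 31.5% higher and 37.2% lower. The primase makes the RNA primers. Prim2, its large subunit, measured 36.1, 38.7 and 39.6 FPKM in WT libraries 1 to 3 and 45.1, 47.5 and 45.7 FPKM under the Prkcz-/- label (log2 difference 0.27, SE 0.0444, limma adjusted p = 8.76e-04). Prim1, the catalytic subunit, measured 82.3, 77.8 and 79.0 FPKM in WT and 86.9, 89.3 and 89.4 FPKM under the Prkcz-/- label (log2 difference 0.15, SE 0.0339, limma adjusted p = 0.00452). In both genes every library labelled Prkcz-/- was above every WT library. Pola1, the catalytic subunit of the polymerase alpha that extends those primers, moved the other way, with 25.6, 27.3 and 25.8 FPKM in WT and 19.7, 19.3 and 20.2 FPKM under the Prkcz-/- label (log2 difference -0.40, SE 0.0423, limma adjusted p = 7.25e-05). Pola2, its second subunit, overlapped between the groups at 34.8, 35.7 and 33.7 against 34.6, 36.3 and 37.2 FPKM (log2 difference 0.051, SE 0.0419, limma adjusted p = 0.306), and was called higher only after rescaling without short RNA genes (adjusted p = 0.0269) among the scalings tried. As shares of the summed FPKM of these 4 subunits, Pola1 made up 14.7% ± 0.468 in WT and 10.4% ± 0.298 in the libraries labelled Prkcz-/-, and Prim2 made up 21.3% ± 1.03 and 24.2% ± 0.481 (SD, n = 3).

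RPA coats the single strands that the helicase opens. Its large subunit gene Rpa1 measured 101, 102 and 100.1 FPKM in WT libraries and 118, 119.6 and 120.3 FPKM under the Prkcz-/- label (log2 difference 0.24, SE 0.0287, limma adjusted p = 1.58e-04). Rpa2, the middle subunit, measured 48.0, 42.4 and 46.1 FPKM in WT and 40.3, 40.9 and 38.8 FPKM under the Prkcz-/- label (log2 difference -0.18, SE 0.0508, limma adjusted p = 0.0137). The first was higher and the second lower, with no overlap in either, but the call of Rpa2 ended without the third library labelled Prkcz-/- (adjusted p = 0.0526), under quantile normalization (0.0687) and after rescaling without short RNA genes (0.0789). Pole, the leading strand polymerase, went from 23.6 ± 1.26 to 18.2 ± 0.392 FPKM (SD, n = 3; log2 difference -0.36, SE 0.0489, limma adjusted p = 2.85e-04). Pold1, the catalytic subunit of the lagging strand polymerase, measured 25.8, 25.1 and 25.4 FPKM in WT and 23.6, 24.3 and 25.3 FPKM under the Prkcz-/- label, which overlapped (log2 difference -0.062, SE 0.0405, limma adjusted p = 0.210).

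All 8 genes of the sliding clamp, its loader and flap processing, with which the fork protection gene Tipin is grouped here, were lower (median log2 difference -0.42). Tipin, whose protein holds the fork together with TIMELESS, measured 136, 124 and 128 FPKM in WT libraries 1 to 3 and 71.3, 64.4 and 68.5 FPKM under the Prkcz-/- label (log2 difference -0.92, SE 0.0496, limma adjusted p = 1.71e-06). No library of one group came near the other, and the mean was 47.4% below that of WT. Timeless itself, no member, moved the other way, at 26.8, 24.97 and 24.2 FPKM in WT and 33.8, 34.9 and 34.2 FPKM under the Prkcz-/- label (log2 difference 0.43, limma adjusted p = 7.77e-05), on chromosome 10, whose median difference was 0.25. Pcna, the clamp itself, measured 187, 176 and 183 FPKM in WT and 144, 142 and 139 FPKM under the Prkcz-/- label (log2 difference -0.36, SE 0.0344, limma adjusted p = 3.91e-05). Its groups did not overlap, and annotated pseudogene copies could take or give reads. The 4 measured small subunits of the RFC clamp loader were all lower, and their summed FPKM was 249, 249 and 241 in WT and 163, 173 and 167 in the libraries labelled Prkcz-/-. Rfc2 had the lowest difference of the 4, going from 85.7 ± 2.62 to 50.1 ± 2.70 FPKM (SD, n = 3; log2 difference -0.77, SE 0.0463, limma adjusted p = 3.12e-06), and it shares 15.1% of its exon length with Lat2 on the opposite strand. Rfc5, Rfc4 and Rfc3 had log2 differences of -0.51, -0.43 and -0.41, with adjusted p-values of 1.15e-04, 6.00e-05 and 3.72e-05 in limma. Rfc4 shares 12.65% of its exon length with Eif4a2 and Rfc5 10.7% with Wsb2.

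The smallest differences of this group were in Okazaki fragment processing. Lig1, the ligase that joins the fragments, went from 64.0 ± 1.34 to 54.1 ± 0.954 FPKM (SD, n = 3; log2 difference -0.24, SE 0.0330, limma adjusted p = 3.21e-04). Fen1, the nuclease that cuts their flaps, measured 52.9, 52.5 and 51.7 FPKM in WT and 48.4, 50.5 and 46.8 FPKM under the Prkcz-/- label (log2 difference -0.11, SE 0.0378, limma adjusted p = 0.0336). The groups lay next to each other, and the call ended with median-ratio scaling, quantile normalization or rescaling without short RNA genes (adjusted p = 0.106 to 0.782), without a variance trend (0.0679) and without any single library other than the second one labelled Prkcz-/- (0.0543 to 0.111). Its exons share 78.8% of their length with the antisense gene Gm10143.

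The 4 nucleotide supply genes were lower, with a median log2 difference of -0.57. Tk1, the thymidine kinase of S phase, measured 97.3, 90.2 and 91.8 FPKM in WT libraries 1 to 3 and 55.0, 52.4 and 52.4 FPKM under the Prkcz-/- label (log2 difference -0.80, SE 0.0404, limma adjusted p = 1.21e-06). Tyms, which makes thymidylate, measured 26.2, 25.4 and 27.3 FPKM in WT and 14.2, 14.5 and 16.2 FPKM under the Prkcz-/- label (log2 difference -0.79, SE 0.0593, limma adjusted p = 1.02e-05). Both thymidine genes were separated between the groups by far more than their spread, and Tyms has an annotated pseudogene copy. Ribonucleotide reductase, which makes all deoxynucleotides, was measured in all 3 of its subunits, of which the 2 among the 45 genes fell. Rrm1, the large subunit, measured 138, 136 and 136 FPKM in WT and 104, 111 and 108 FPKM under the Prkcz-/- label (log2 difference -0.34, SE 0.0337, limma adjusted p = 4.69e-05). Rrm2, the S phase small subunit, measured 56.9, 56.2 and 57.2 FPKM in WT and 52.0, 50.3 and 48.4 FPKM under the Prkcz-/- label (log2 difference -0.18, SE 0.0365, limma adjusted p = 0.00316). Rrm2b, the p53-induced small subunit used outside S phase, is no member, and was higher at 5.55, 5.71 and 5.57 FPKM against 4.27, 4.20 and 4.15 FPKM in WT (log2 difference 0.38, limma adjusted p = 6.43e-04), on chromosome 15, whose median difference was 0.29. The call of Rrm2 ended with quantile normalization (adjusted p = 0.0675) and rescaling without short RNA genes (0.0681).

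All 5 genes that copy chromatin and DNA methylation or supply histones were lower, with a median log2 difference of -0.46. Slbp, which binds the stem loop of replication histone messages, measured 73.9, 69.8 and 74.6 FPKM in WT and 41.8, 44.6 and 43.0 FPKM under the Prkcz-/- label (log2 difference -0.75, SE 0.0411, limma adjusted p = 1.92e-06). Uhrf1, which brings the methyltransferase to newly made DNA, measured 63.7, 67.8 and 67.6 FPKM in WT and 44.2, 43.5 and 42.5 FPKM under the Prkcz-/- label (log2 difference -0.61, SE 0.0377, limma adjusted p = 3.74e-06). Neither gene overlapped between the groups. Dnmt1, the methyltransferase itself, fell less, from 86.7 ± 1.27 to 69.8 ± 1.48 FPKM (SD, n = 3; log2 difference -0.31, SE 0.0318, limma adjusted p = 5.97e-05). Chaf1a and Chaf1b, subunits of the assembly factor that puts histones on new DNA, went from 47.5 to 34.4 FPKM and from 40.2 to 29.5 FPKM, with log2 differences of -0.46 and -0.44 (limma adjusted p = 4.03e-05 and 1.23e-04). Chaf1a shares 52.5% of its exon length with Ubxn6 on the opposite strand, and lies 0.26 Mb from Uhrf1 on chromosome 17.

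Of the 4 G1/S regulators, 3 were lower and E2f2 was not called, with a median log2 difference of -0.49. Ccne2, the cyclin E2 gene, measured 23.9, 23.2 and 24.4 FPKM in WT libraries 1 to 3 and 13.8, 12.4 and 12.9 FPKM under the Prkcz-/- label (log2 difference -0.85, SE 0.0521, limma adjusted p = 3.50e-06). Ccne1, the cyclin E1 gene, measured 22.6, 21.2 and 21.4 FPKM in WT and 15.3, 13.2 and 14.2 FPKM under the Prkcz-/- label (log2 difference -0.60, SE 0.0614, limma adjusted p = 6.10e-05). Both cyclins that drive CDK2 at S phase entry were lower in every library labelled Prkcz-/-, and Ccne2 shares 17.4% of its exon length with Ints8. E2f1, an activator that is itself an E2F target, measured 28.8, 25.4 and 23.8 FPKM in WT and 21.5, 21.02 and 21.03 FPKM under the Prkcz-/- label (log2 difference -0.28, SE 0.0668, limma adjusted p = 0.00591). The WT libraries of E2f1 were spread more widely than those labelled Prkcz-/-, and the lowest of them lay near the other group. E2f2, a second activator and the lowest of the 45 genes in FPKM, measured 1.35, 1.498 and 1.53 FPKM in WT and 1.36, 0.908 and 0.810 FPKM under the Prkcz-/- label. Library 1 of the latter lay among the WT libraries (log2 difference -0.38, SE 0.1496, limma adjusted p = 0.0525), and without it the gene was called lower at a log2 difference of -0.53 (limma adjusted p = 0.00704). The lowest value of E2f2 rests on roughly 61 reads, against 265 or more in each library for every other member.

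The members with a positive difference lay on chromosomes whose genes were, in the median, also higher. Over all genes tested, the median log2 difference was above 0 on 7 chromosomes (0.08 to 0.29) and below 0 on 13 (-0.23 to -0.05), and on each of the 20 chromosomes tested the libraries of the groups did not overlap in their medians. All 6 of the 45 genes with a positive difference lay on chromosomes with a positive median: Mcm3, Prim2 and Mcm6 on chromosome 1 (median 0.25 over 665 genes), Prim1 on chromosome 10 (0.25 over 571), Rpa1 on chromosome 11 (0.19 over 986) and Pola2 on chromosome 19 (0.27 over 416). Of the 14 members on such chromosomes, 4 were higher, 7 lower and 3 not called, with a median of -0.08. Over all 4386 tested genes there, the median was 0.19, and by chromosome 34.9% to 65.5% were higher and 12.7% to 24.6% lower. Of the 31 on the other chromosomes, none was higher, 30 were lower and 1 was not called in limma, with a median of -0.43. All 7278 tested genes there had a median of -0.17, and by chromosome 16.1% to 28.4% were higher and 37.0% to 55.0% lower. On chromosome 1, 57.4% of tested genes were higher, and on chromosome 5, which holds 8 of the 45 genes, 53.75% were lower. Across the 45 genes, the difference had a Pearson r of 0.631 and a Spearman rho of 0.510 with the median difference of the tested genes within 10 Mb. This is a description, since the points come from the same 6 libraries and members close to each other share neighbours. DNA copy number was not measured, and its part in these differences was not tested.

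The members were therefore also fitted with the median of each chromosome removed from each library, an alternative chosen after seeing the data. In that fit 36 of the 45 genes were lower and 1 was higher, against 31.2% lower and 30.6% higher over all genes tested. The median of the 45 genes was -0.26, against -0.0026 over all tested genes. Of the 37 genes lower before, 32 were also lower here. Tk1, on a chromosome with a positive median, had the lowest value at -0.99 (limma adjusted p = 4.58e-07), followed by Cdc7 at -0.85, Tipin at -0.72, Gins2 at -0.68 and Ccne1 at -0.67. Mcm6 was the 1 gene that was higher in both fits, with a log2 difference of 0.22 relative to chromosome 1 (limma adjusted p = 0.00123). Prim2 and Rpa1 were close to their chromosomes, at 0.035 and 0.049, and no longer passed (adjusted p = 0.511 and 0.162). Prim1, higher before, was lower by this measure at -0.09 (adjusted p = 0.0420), and Mcm3, Pola2 and Pold1, not called before, were lower at -0.17, -0.23 and -0.13 (adjusted p = 0.00302, 0.00152 and 0.0263). Tested genes within 10 Mb had medians of 0.069 for Mcm3, 0.262 for Pola2, 0.074 for Pold1 and 0.295 for Mcm6. Mcm3, at 0.068 in the main fit, thus matched its near neighbours, and its lower call is against chromosome 1 as a whole. The calls of Cdt1, Rpa2, Mcm2, Mcm7 and E2f1 ended, at 0.04, 0.013, -0.085, -0.056 and -0.18.

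**Figure D3:**
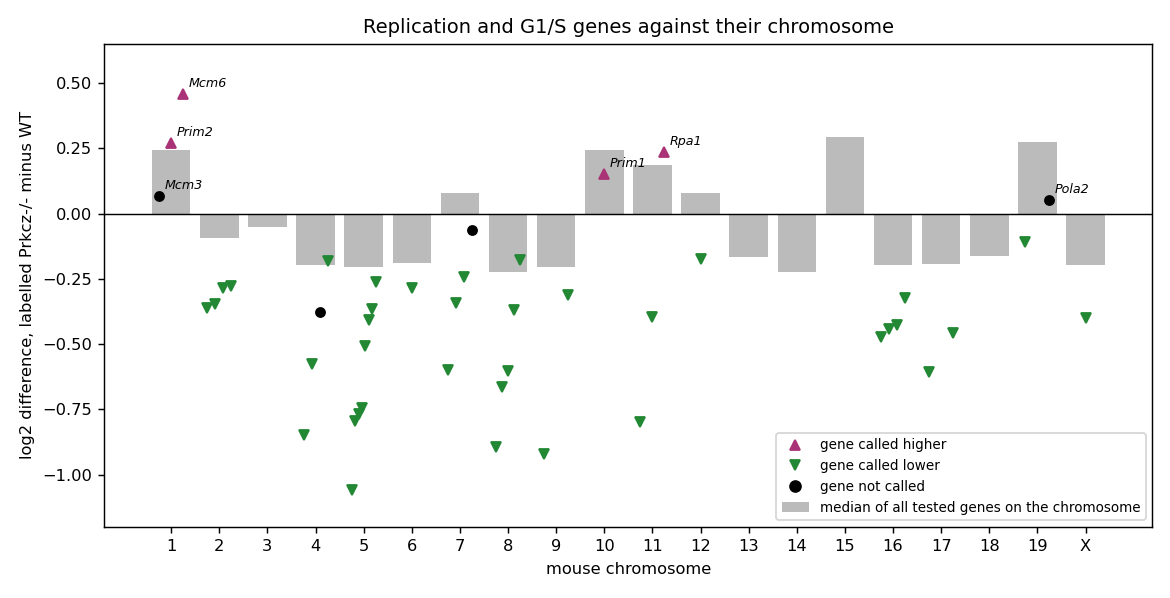
Log2 difference (libraries labelled Prkcz-/- minus WT) of the 45 genes by chromosome, with grey bars for the median of all tested genes on each chromosome and symbols for higher, lower and uncalled genes. The 6 genes above 0 all lie where the bar is above 0, and Mcm6 lies well above its bar.

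Other genes of the same processes were described from lists that exclude the 45. Over 6 such lists with 131 genes, all tested, 80 were lower and 19 higher, with a median log2 difference of -0.28. Of all tested genes, 37.2% were lower and 31.5% higher, and the counts of each list are to be read beside these shares. In licensing, firing and fork genes 10 of 18 were lower and 5 higher (median -0.18), and Dbf4, the activating partner of CDC7, was lower as Cdc7 was, with 61.5, 58.1 and 64.1 FPKM in WT and 36.7, 34.2 and 36.5 FPKM under the Prkcz-/- label (log2 difference -0.77, limma adjusted p = 3.93e-06). Gmnn, which encodes the inhibitor of CDT1, went from 63.1 to 40.3 FPKM (log2 difference -0.64, limma adjusted p = 3.34e-05), and Donson and Wdhd1, which encode fork proteins, went from 22.9 to 13.4 FPKM and 22.9 to 15.1 FPKM. In polymerase, clamp loader and Okazaki genes 12 of 18 were lower and 1 higher (median -0.21). There Dna2, which trims long flaps, went from 9.82 to 4.83 FPKM (log2 difference -0.95, limma adjusted p = 6.03e-06), and Rpa3, the small subunit of RPA, from 71.9 to 41.8 FPKM (log2 difference -0.77, limma adjusted p = 6.36e-05). Chtf18, of an alternative clamp loader, and Pold3, of polymerase delta, went from 14.4 to 9.69 FPKM and 17.5 to 13.2 FPKM.

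In nucleotide supply 16 of 24 other genes were lower and 4 higher (median -0.29). Cad, which starts pyrimidine synthesis, went from 34.4 to 19.4 FPKM (log2 difference -0.81, limma adjusted p = 6.03e-07), and Dck, Impdh1 and Impdh2, of nucleoside salvage and guanine nucleotide synthesis, from 34.7 to 22.1 FPKM, 23.4 to 14.5 FPKM and 110.3 to 70.1 FPKM. In replication-coupled chromatin genes 8 of 13 were lower and 2 higher (median -0.36), and Asf1b, the histone chaperone that hands histones to CAF-1, went from 34.3 to 17.4 FPKM (log2 difference -0.96, limma adjusted p = 5.38e-07). The histone chaperone gene Nasp, Rbbp7, which encodes a histone binding protein, and Hmgb2 went from 105 to 57.6 FPKM, 207 to 144 FPKM and 65.2 to 34.6 FPKM. Among checkpoint and fork repair genes 12 of 24 were lower and 3 higher (median -0.26), against 37.2% lower and 31.5% higher of all tested genes. Usp1, Chek1 and Fanca, of fork repair and the checkpoint, were lower, from 61.3 to 38.1 FPKM, 14.6 to 10.6 FPKM and 15.6 to 10.6 FPKM, while Wee1, the kinase that holds CDK1 and CDK2 inactive, was higher, from 15.5 to 22.6 FPKM (log2 difference 0.53, limma adjusted p = 1.01e-04).

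Among 34 other G1/S regulators 22 were lower and 4 higher (median -0.33), again beside 37.2% lower and 31.5% higher of all tested genes. Tfdp1, the dimer partner of E2F proteins, went from 95.5 to 56.3 FPKM (log2 difference -0.76, limma adjusted p = 9.10e-07) and Ccna2, the S phase cyclin A2, from 131 to 82.0 FPKM (log2 difference -0.68, limma adjusted p = 1.24e-06). Both inhibitors named by the selection rule moved in opposite directions. Cdkn2d, the CDK4 and CDK6 inhibitor p19, was lower, from 34.5 to 17.4 FPKM (log2 difference -0.97, limma adjusted p = 2.58e-06). Cdkn1c, the CDK inhibitor p57, was higher, with 4.29, 4.44 and 4.28 FPKM in WT libraries and 13.9, 14.9 and 13.3 FPKM under the Prkcz-/- label (log2 difference 1.58, limma adjusted p = 2.32e-07). Other CDK inhibitor genes did not rise with it. Cdkn1b, Cdkn2c and Cdkn1a were lower (log2 difference -0.625, -0.61 and -0.12), and Cdkn2a and Cdkn2b were not called (limma adjusted p = 0.490 and 0.736). The G2 and mitosis list had 31 of 35 lower and 1 higher (median -0.52), and Kif23, a motor of cytokinesis, went from 53.7 to 25.4 FPKM (log2 difference -1.07, limma adjusted p = 1.62e-07). Ccnb2, Cdca3 and Bub1, of mitotic entry and the spindle checkpoint, went from 118 to 62.2 FPKM, 97.6 to 54.4 FPKM and 33.0 to 18.2 FPKM. In a list of 13 quiescence and cell cycle exit genes, which also holds Cdkn1c, 10 were higher and 3 lower (median 0.85). Among the higher were Btg1, an antiproliferative gene, from 11.2 to 25.3 FPKM, Hes1 from 16.0 to 33.2 FPKM and Foxo3 from 7.32 to 20.2 FPKM (limma adjusted p = 2.27e-07, 3.46e-06 and 3.86e-06). The lowest of the list was Cdkn1b, another CDK inhibitor gene, from 48.9 to 31.5 FPKM (log2 difference -0.625, limma adjusted p = 2.38e-05). The lists were chosen with results of these data known, so their directions are not independent evidence.

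**Figure D4:**
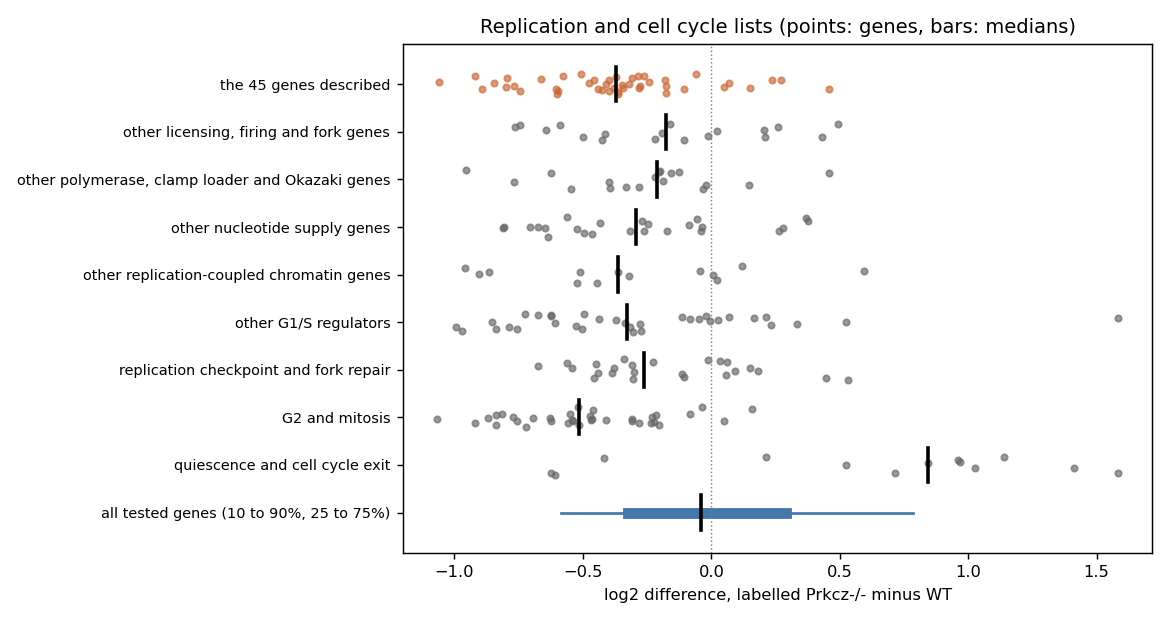
Log2 difference (libraries labelled Prkcz-/- minus WT) of each gene in the 45-gene set and in 8 related lists, with a vertical bar at each median and, at the bottom, the spread of all 12130 tested genes. The medians of the 45 genes and the 6 replication, G1/S and checkpoint lists lie from -0.37 to -0.18, the G2 and mitosis list at -0.52 and the quiescence list at 0.85.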

How the data were processed

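The authors deposited 1 table of FPKM values for 16874 genes, with 1 column per library. Build mm10 and the tools STAR and DESeq2 are named in the submitters' processing notes, without roles or versions. The counting program, annotation and strand setting are likewise not given in the sources. Per the labels' protocols, polyadenylated RNA went into directional libraries read from a single end. FPKM values are not counts, so log2(FPKM + 0.5) of the 12130 genes averaging 0.5 FPKM or more was compared with limma 3.58.1 in R 4.3.3 (lmFit, eBayes with a variance trend). Tests were two-sided, with Benjamini-Hochberg adjustment over all genes tested and a threshold of 0.05. Differences are on this log2 scale, which understates the change of low genes.

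Depth is approximate, since it was read from low values that step in whole reads and from annotated exon lengths. Positions and exon overlaps came from GENCODE M21 (GRCm38), in which 16175 of the table's genes matched 1 gene by symbol, and promoters from RefSeq (GRCm38.p6). The members and lists were chosen with earlier results of these data known. Named genes were all 45 members, Prkcz, and up to 4 genes with the smallest p-value from each other replication or cell cycle list. Rrm2b, Gins4 and Timeless, partners of members, and the markers Dcn and Lum are named outside that rule, after their values were seen. So are the inhibitor genes Cdkn1a, Cdkn1b, Cdkn2a, Cdkn2b and Cdkn2c. The markers Epcam, Cdh1, Ptprc, Pecam1 and Sox10, named as low in every library, are also outside it. Markers were mostly given as summed ranges, and some marker genes that the rule names are not listed. Alternatives were other pseudocounts, filters, scalings, variance models and thresholds, a block for the replicate number, leaving out each library, and, chosen after seeing the data, removal of chromosome medians.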

Additional observations from a re-analysis of the deposited data

How the results depend on the processing

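The count of lower genes stayed within 33 to 38 of 45 and that of higher genes within 4 to 6 in all alternatives other than removal of chromosome medians, which left 36 lower and 1 higher. The median log2 difference, -0.37, was -0.34 with median-ratio scaling, -0.33 with quantile normalization, -0.29 after rescaling without the 119 short RNA genes and -0.26 with chromosome medians removed. The median over all tested genes moved too. With it subtracted, the values were -0.331 in the main fit and, in the same order, -0.329, -0.261, -0.325 and -0.253. Leaving out each library in turn gave -0.38 to -0.36, with 35 to 37 genes lower and 4 higher. Rescaling without short RNA genes raised the share of higher genes among all called from 45.9% to 54.7%. It turned the sign of Pold1, which was not called either way (0.0189). Removing chromosome medians turned the sign of Cdt1 (0.0399), Mcm3 (-0.17), Pola2 (-0.23), Prim1 (-0.0904) and Rpa2 (0.0131). Each of these genes had a smaller difference than its chromosome's median, in the same direction, so the subtraction itself turned the sign. The cause of the chromosome medians was not tested. E2f2, not called, was called lower with quantile normalization, without a variance trend and with robust empirical Bayes (adjusted p = 0.00686, 0.0426 and 0.0409). A minimum mean of 2 FPKM dropped it. At an adjusted p under 0.01, 34 genes were lower and 4 higher.

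The replicate numbers were not shown to pair the libraries: deviations of same-numbered libraries had r = 0.0599, 0.0148 and 0.00827. With a replicate block, 36 genes were lower and 4 higher, the median stayed at -0.37, and Fen1 was the 1 gene whose call ended (adjusted p = 0.0513). The planned edgeR and DESeq2 settings for counts were not run, as only FPKM values were deposited. FPKM values without counts allow no counting interval. The estimated depth left at least 265 reads per library for each member other than E2f2, whose lowest value rests on roughly 61.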
